A study of Mus musculus with 112 samples.

Results

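Desmosomes are the spot-like junctions that tie the keratin filaments of one epithelial cell to those of the next. The desmogleins and desmocollins, which are cadherins, bridge the gap between cells. Inside the cell their tails bind the armadillo proteins plakoglobin and the plakophilins, and these bind desmoplakin, which holds the keratin filaments. In stratified epidermis the members change with cell position, desmoglein 1 being typical of the upper layers and desmoglein 3 of the lower ones. The 10 genes described here were Dsg1b, Dsg2, Dsg3, Dsc2 and Dsc3 (cadherins), Jup (plakoglobin), Pkp1 and Pkp3 (plakophilins), Dsp (desmoplakin) and Perp, a tetraspan membrane protein of desmosomes that is a target of p53 and p63. They were chosen by symbol through the annotation of the array platform and are 10 of the 18772 genes that had a probe set with a single symbol. The 5 cadherin genes lie in 1 region of chromosome 18, between 19960930 and 20604526 of mouse build GRCm38.p6 (RefSeq), and the other members lie on chromosomes 1 (Pkp1), 7 (Pkp3), 10 (Perp), 11 (Jup) and 13 (Dsp).

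RNA was measured on 112 Affymetrix arrays from 15 male mice of an FVBBX cross, in which F1 animals of Spretus and FVB were crossed to FVB, 9 of them wild-type (WT) and 6 labelled HrasKO for the Ras gene Hras. The carcinogen DMBA was given to every mouse once, at an age of 8 weeks, and was followed by the tumour promoter TPA over and over, primary tumours were resected once they exceeded 1 cm, and the mice carried metastases at the end. The skin is therefore dorsal skin of tumour-bearing, treated mice and not of untreated ones. The arrays held skin (15 arrays, 15 mice), papilloma, the benign tumour (27 arrays, 13 mice), squamous cell carcinoma or SCC (10 arrays, 8 mice, all WT), spindle carcinoma, a tumour of elongated cells (12 arrays, 10 mice, 6 WT and 4 HrasKO), SCC metastasis (24 arrays, 11 mice, 8 WT and 3 HrasKO) and spindle metastasis (20 arrays, 7 mice, 3 WT and 4 HrasKO). Of the 12 spindle carcinomas, 7 were titled RegCA, a word that the labels do not explain. Values are log2 expression values after RMA, a standard array normalisation, and arrays of one mouse and class were averaged, so that n counts mice. The number of mice limits the precision. Levels of different genes come from different probe sets and were not set against each other.

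Each array was compared with the arrays of other mice over all named genes other than the 10 members. Here papillomas and all SCC tumours counted as 1 squamous class, and all spindle tumours as 1 spindle class, beside skin. On that count 12 arrays correlated best with another class than their label. The 12 were 5 papillomas, of which 4 were closest to spindle tumours and 1 to skin, 6 SCC metastases closest to spindle tumours, and 1 spindle carcinoma, of mouse 1949, closest to papillomas. All 10 SCC carcinoma arrays and 2 SCC metastasis arrays were closer to papillomas than to SCC tumours, and are not among the 12. Tests use all arrays, and many are also given without these 12. The members vary together with many of the genes used to find these arrays, so leaving them out can enlarge the differences between classes by that choice alone, and the values without them are descriptions. Keratin 5 and keratin 14, which mark basal keratinocytes, had median levels of 12.27 and 12.24 in skin, 12.54 and 12.61 in SCC carcinomas, 8.18 and 9.71 in spindle carcinomas and 5.09 and 5.68 in spindle metastases. Keratin 8 and keratin 18, of simple epithelia, went the other way. Keratin 8 medians were 7.065 in skin, 10.627 in SCC carcinomas, 12.139 in spindle carcinomas and 12.086 in spindle metastases. Those of keratin 18 were 5.884, 9.928, 9.646 and 11.095. Epcam and E-cadherin (Cdh1) were lower in spindle carcinomas (medians 5.635 and 8.093) than in skin (9.899 and 10.961). Epithelial markers thus did not all move together. In these bulk tissue samples fewer epithelial cells and less RNA per epithelial cell cannot be told apart. The plot of levels by mouse shows all 10 genes in the 6 classes.

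**Figure D1:**
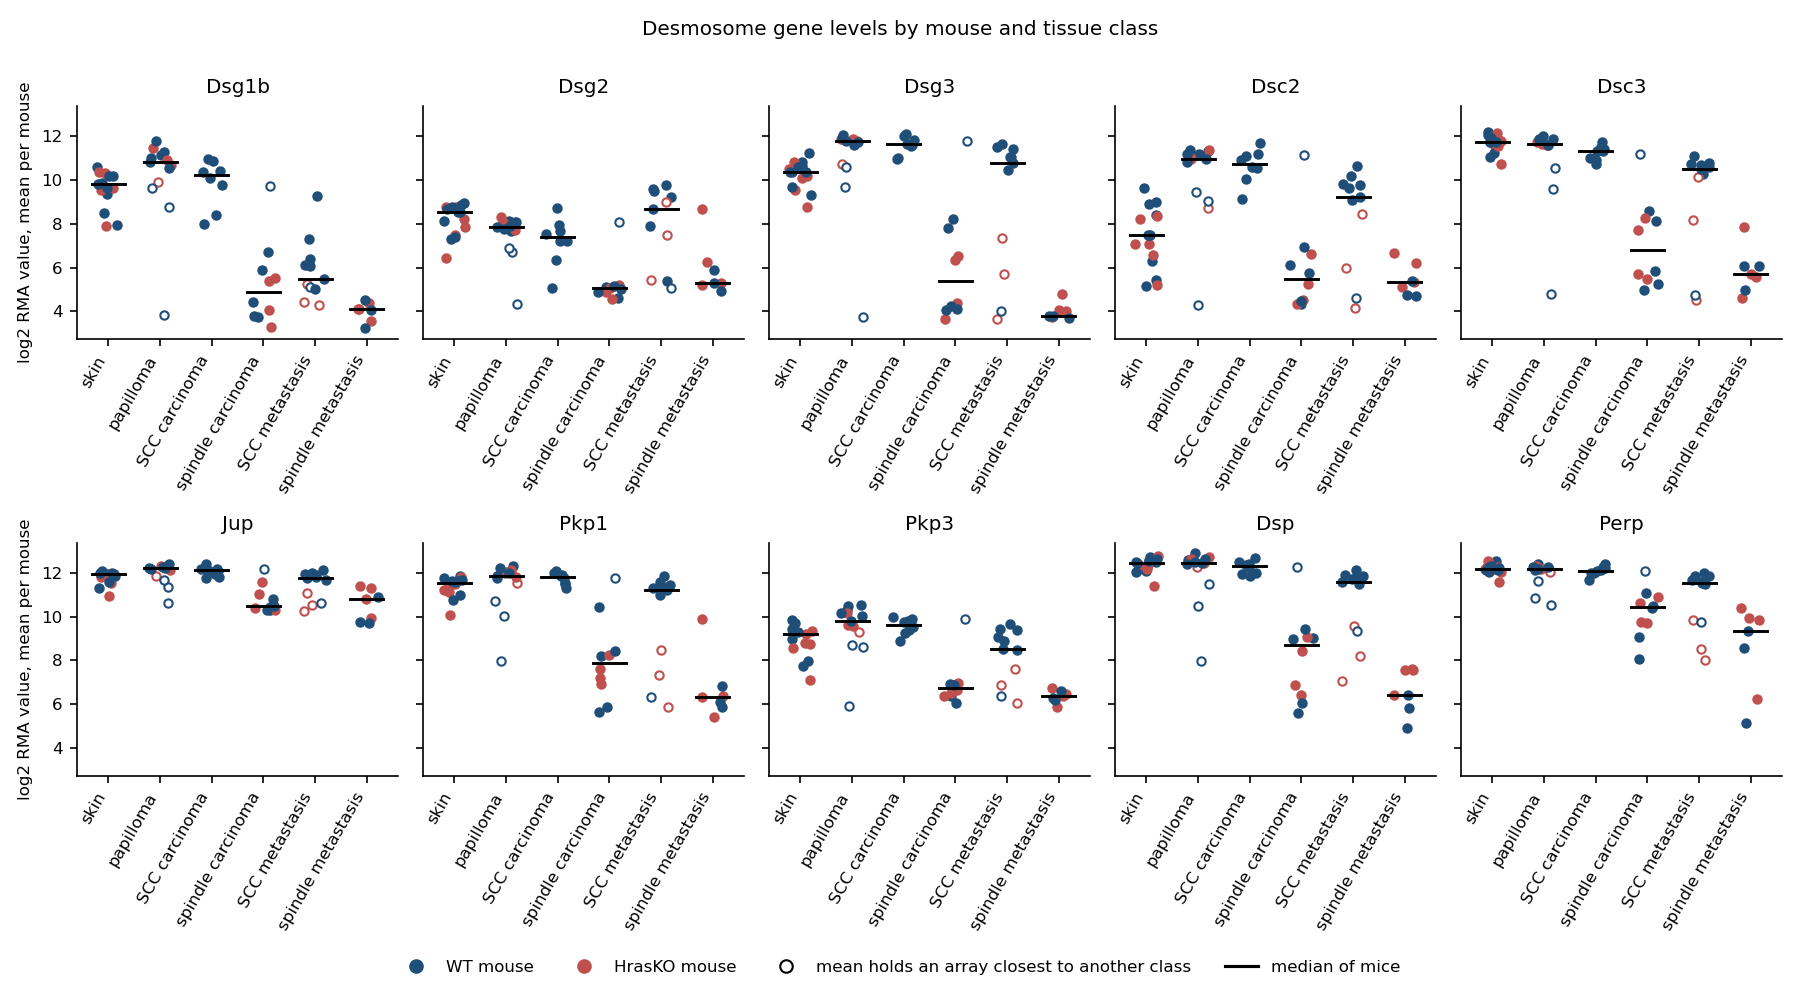
Levels of the 10 desmosome genes (log2 RMA value, vertical axis) in skin, papilloma, SCC and spindle carcinoma and SCC and spindle metastasis, with 1 point per mouse, WT in blue and HrasKO in red, and a bar at the median of the mice. Open points are means that hold an array closest to another class. The spindle carcinoma mean of mouse 1949 was the highest of its class for all 10 genes, and the Dsg3 levels of all 7 mice with spindle metastases lay between 3.70 and 4.80.

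Papillomas and skin of the same 13 mice were compared first. Only Dsc2, a desmocollin, was called: it was higher in papillomas in 11 of 13 mice. Dsc2 ranged from 5.14 to 9.60 in skin, with a median of 7.50, and from 4.28 to 11.36 in papillomas, with a median of 10.97. The lowest papilloma mean, that of mouse 1815, lay under all skin values, so the ranges overlapped. Dsc2 rose by 2.82 (SE 0.725, limma adjusted p = 0.00609), and was the 1 member called higher, where 24.5% of all genes were called higher and 18.1% lower. The median difference was 0.15 over the 10 members and 0.045 over all genes. None of the other 9 members passed the test in either direction, with adjusted p from 0.181 for Dsg2 to 0.894 for Pkp1. Markers of other cell types moved in this comparison too: 5 of 5 skeletal muscle markers (median -3.16), 4 of 4 adipocyte markers (median -3.23) and 4 of 5 sebocyte markers (median -3.52) were lower in papillomas, and the fifth sebocyte marker was higher. Over mice, the mean of the muscle markers ran from 5.54 to 12.25 in skin and from 5.15 to 8.80 in papillomas, that of the adipocyte markers from 5.74 to 11.19 and from 4.62 to 6.72, and that of the sebocyte markers from 8.09 to 9.98 and from 5.87 to 8.12. Their part in the member differences was not tested.

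The papilloma means of mice 1815, 1984 and 1508 hold arrays closest to spindle tumours, and that of mouse 1407 holds an array closest to skin. For Dsc2 they were 4.28, 9.04, 9.42 and 8.70. Both papilloma arrays of mouse 1815 were such arrays, and its papilloma mean was the lowest of the class for 9 of the 10 members. When the arrays closest to another class were left out (12 mice), 6 members were higher in papillomas, in a fit that called 51.2% of all genes in either direction. Dsc2 then rose by 3.98 (SE 0.386), and Dsg3, the desmoglein of basal layers, rose by 1.70 (SE 0.172). Dsg1b rose by 1.54 (SE 0.238) and the plakophilin Pkp3 by 1.27 (SE 0.185). Pkp1 rose by 0.67 and Jup by 0.50, while Dsp (0.22, adjusted p = 0.0584), Dsg2, Dsc3 and Perp did not pass. Leaving out mouse 1815 alone gave 5 members higher, with 45.8% of all genes called.

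Because every desmosome holds desmoplakin, the change of each other member was compared with that of Dsp in the same mice, by an exact sign-flip permutation test over mice (two-sided, 18 tests, adjusted by Benjamini-Hochberg). From skin to papilloma, Dsc2 changed by 3.21 more than Dsp (SD 1.57, n = 13 mice, 12 of 13 above Dsp, exact permutation adjusted p = 0.0022). Pkp3 changed by 1.00, Jup by 0.61 and Pkp1 by 0.46 more than Dsp, each in 13 of 13 mice (exact permutation adjusted p = 0.00146 for each, with 0.000244 the smallest raw p that 13 mice allow). Dsg3 and Dsg1b changed by 1.05 and 1.01 more than Dsp, each in 12 of 13 mice (exact permutation adjusted p = 0.0264 and 0.0149). Dsc3, Dsg2 and Perp were not called against Dsp. Without the arrays closest to another class, Dsg2 (-0.36, exact permutation adjusted p = 0.0396, n = 12 mice) and Perp (-0.18, exact permutation adjusted p = 0.0226, n = 12 mice) were below Dsp, Perp having been 0.15 above it with all arrays.

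SCC carcinomas had more Dsg3 and Dsc2 and slightly less Dsc3 than skin, and no member was called between SCC carcinomas and papillomas. Against skin of the same 8 mice, 2 members were higher and 1 lower, where 15.6% of all genes were called higher and 15% lower. Dsg3 ranged from 8.77 to 11.23 in skin (median 10.35) and from 10.97 to 12.10 in SCC carcinomas (median 11.61). Within the 8 mice that had both, its ranges did not overlap, and it rose by 1.32 (SE 0.207, adjusted p = 0.00173). Dsc2 ranged from 9.11 to 11.66 in SCC carcinomas (median 10.72) and rose by 3.29 (SE 0.418, adjusted p = 6.32e-04) in 8 of 8 mice. Dsc3, the other desmocollin measured, had a median of 11.73 in skin and 11.30 in SCC carcinomas and fell by 0.45 (SE 0.107, adjusted p = 0.0118), being lower in 8 of 8 mice. The call of Dsc3 was lost (adjusted p = 0.0598, 0 members lower) in the fit with no replicate block, that is, without the mouse as a term. In SCC carcinomas 4 of 4 adipocyte markers (median -2.73), 4 of 5 skeletal muscle markers (median -2.55) and 4 of 5 sebocyte markers (median -4.07) were lower than in skin, with means over mice from 4.71 to 6.32, from 5.31 to 7.51 and from 5.62 to 7.09, and their part in the member differences was not tested. Against papillomas of the same mice no member was called (0.202% of all genes were), and the member differences ran from -0.77 for Dsg1b to 0.18 for Dsg3. No member had an unadjusted p under 0.05, where 1768 of the 18772 genes did. Without the arrays closest to another class, Dsc3 (-0.55, SE 0.0938, adjusted p = 0.0233) and Pkp3 (-0.62, SE 0.128, adjusted p = 0.0432) were lower in SCC carcinomas than in papillomas, and 2.01% of all genes were called.

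Spindle carcinomas had lower levels of every member than papillomas. Against papillomas of the same 9 mice all 10 members fell, where 11.2% of all genes were called lower and 12.6% higher. The median difference of the members was -3.32, against 0.03 over all genes. Among the cadherins, Dsg1b ranged from 3.85 to 11.74 in papillomas (median 10.80) and from 3.30 to 9.70 in spindle carcinomas (median 4.91). It fell by 4.47 (SE 0.718, adjusted p = 0.00775) and was lower in 9 of 9 mice. Dsg3 ranged from 3.73 to 12.06 in papillomas (median 11.76) and from 3.64 to 11.79 in spindle carcinomas (median 5.37). It fell by 4.33 (SE 0.882, adjusted p = 0.0112). In both genes the ranges overlapped through 2 mice: mouse 1815, whose papillomas were low, and mouse 1949, whose spindle carcinoma was high.

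The other cadherins fell as well. Dsc2 fell by 3.61 (SE 0.801), Dsc3 by 3.57 (SE 0.680) and Dsg2, the desmoglein that is also made in simple epithelia, by 2.05 (SE 0.446). Dsg2 in spindle carcinomas was between 4.56 and 5.19 in 9 of the 10 mice, a narrow range, and at 8.07 in mouse 1949. Its papilloma median was 7.86.

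Of the plaque proteins, Dsp ranged from 7.98 to 12.89 in papillomas (median 12.43) and from 5.60 to 12.27 in spindle carcinomas (median 8.72). It fell by 3.53 (SE 0.749, adjusted p = 0.0126) and was lower in 8 of 9 mice. Pkp1 fell by 3.11 (SE 0.776, adjusted p = 0.0209) and Pkp3 by 2.17 (SE 0.428, adjusted p = 0.0102). Jup, which adherens junctions use as well as desmosomes, ranged from 10.62 to 12.37 in papillomas (median 12.20) and from 10.28 to 12.18 in spindle carcinomas (median 10.48), and fell by 1.10 (SE 0.263, adjusted p = 0.0182). Perp fell by 1.63 (SE 0.350, adjusted p = 0.0132). Jup and Perp thus had the smallest log2 falls of the 10.

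These falls were larger without the arrays closest to another class (7 mice, 42.1% of all genes called in either direction), where all 10 members were lower, from -1.68 for Jup to -6.29 for Dsg3. When the carcinomas titled RegCA were left out (5 mice), 0 members and 0 of all genes were called, with adjusted p from 0.0822 to 0.152 for the members and differences from -1.08 for Jup to -5.02 for Dsg1b. Leaving out each mouse in turn, between 8 and 10 members were called lower, in fits whose share of all genes called is not given here. Pkp1 lost its call without mouse 1383, 1407, 1509 or 1664 (adjusted p 0.0507 to 0.0551), and Jup lost it without mouse 1383 (adjusted p = 0.0508).

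**Figure D2:**
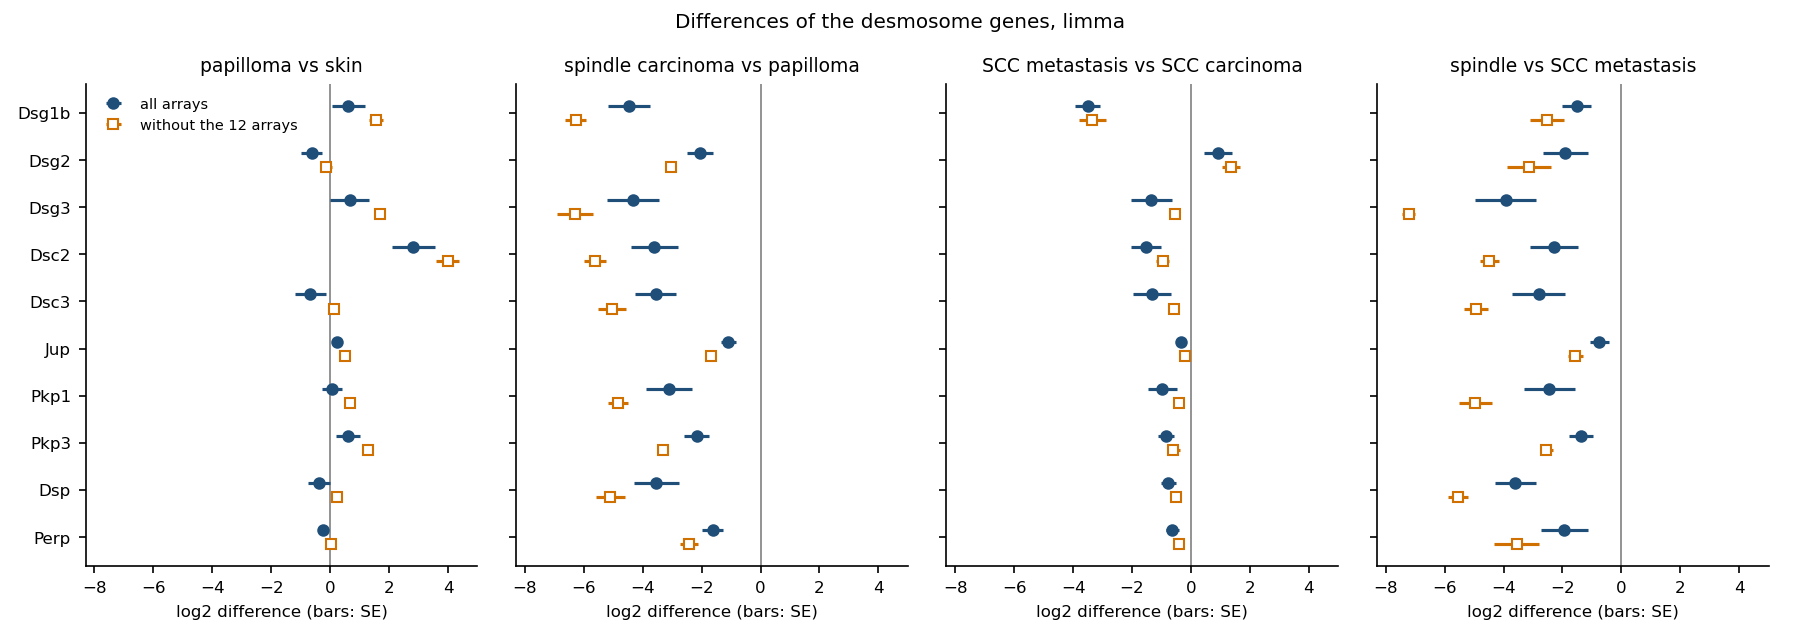
Log2 differences (horizontal axis, with bars for the SE) of the 10 desmosome genes in 4 comparisons, with all arrays (filled circles) and without the arrays closest to another class (open squares). All 10 genes lie left of 0 in spindle carcinomas against papillomas, from -1.10 for Jup to -4.47 for Dsg1b with all arrays, and in SCC metastases against SCC carcinomas Dsg1b lies at -3.51 while Dsg2 lies at 0.92.

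The members did not fall by equal amounts. From papilloma to spindle carcinoma, Jup changed by 2.44 less than Dsp (SD 2.12, n = 9 mice, less in 8 of 9, exact permutation adjusted p = 0.0264). Perp changed by 1.91 less (exact permutation adjusted p = 0.0264) and Dsg2 by 1.49 less (exact permutation adjusted p = 0.032), each in 8 of 9 mice. Dsg3 and Dsg1b changed by 0.79 and 0.94 more than Dsp (values -0.79 and -0.94, exact permutation adjusted p = 0.0234 and 0.032), each in 8 of 9 mice. Dsc2, Dsc3, Pkp1 and Pkp3 were not called against Dsp. Without the arrays closest to another class (7 mice) Dsg3 was at -1.19 against Dsp. These differences compare log2 changes and each probe set has its own background, so a gene near the bottom of the scale has less room to fall.

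Promoter sequence was at hand for Dsp and Jup, the plaque members with the large and the small fall. The bases before each gene are shown 5′ to 3′ on the gene's strand (RefSeq, GRCm38.p6), with matches to the GC box GGGCGG, searched on both strands, in capitals. The Dsp stretch is chr13:38151044-38151293 on the plus strand, the 250 bases before the start given in the RefSeq promoter table. The Jup stretch is chr11:100397840-100398040 on the minus strand, 201 bases, because the RefSeq record of the gene reaches 49 bases further out than the start in that table.
Dsp: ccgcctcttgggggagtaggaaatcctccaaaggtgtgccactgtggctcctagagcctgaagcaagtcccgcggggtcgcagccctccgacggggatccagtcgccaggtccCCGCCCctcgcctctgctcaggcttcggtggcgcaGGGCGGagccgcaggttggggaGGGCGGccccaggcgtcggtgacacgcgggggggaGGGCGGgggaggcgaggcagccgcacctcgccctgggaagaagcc
Jup: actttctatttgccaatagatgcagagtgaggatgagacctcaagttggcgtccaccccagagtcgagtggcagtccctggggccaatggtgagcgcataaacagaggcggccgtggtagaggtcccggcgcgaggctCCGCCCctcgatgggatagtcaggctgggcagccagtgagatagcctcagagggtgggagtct
The GC box was found 4 times in the Dsp stretch and 1 time in the shorter Jup stretch. Over windows of 300 bases (250 before to 50 after the table's start), Dsp held it 4 times and Jup 2 times. The second Jup match began 42 bases before the table's start, in the bases left out of the stretch shown. Of 32851 mouse promoters, 35.7% held the GC box at least 1 time in that window. CACCTG, the E-box that Snail and Zeb factors bind, was found once in Dsp, 4 bases after the table's start and so outside the stretch shown, and not in Jup (20.2% of promoters held it). The AP-1 motif TGANTCA (7.81% of promoters) and the Grainyhead motif AACNGGTT (2.09%) were found in neither window. These are matches of letters and were not tested as sites.

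Against skin of the same 10 mice, 9 members fell in spindle carcinomas, where 19.2% of all genes were called lower. The differences ran from -1.02 for Jup (SE 0.192) to -4.51 for Dsc3 (SE 0.562), with -4.29 for Dsg1b, -4.15 for Dsp, -4.14 for Dsg3 and -2.94 for Dsg2. Dsc2 was the exception, at -1.37 (SE 0.751, adjusted p = 0.158). Without the spindle carcinoma closest to papillomas Dsc2 was lower too (-1.93, SE 0.618, adjusted p = 0.0253, 9 mice, 47.3% of all genes called).

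Spindle carcinomas of WT mice (6 mice) were also compared with SCC carcinomas (8 mice, 5 of them with both), since no SCC carcinoma came from an HrasKO mouse. Here 9 members were lower in spindle carcinomas, where 4.09% of all genes were called lower. Dsg3 differed by -4.91 (SE 1.04, adjusted p = 0.0187), Dsc2 by -4.21, Dsg1b by -4.18, Dsc3 by -3.93 and Dsp by -3.68 (SE 0.816, adjusted p = 0.0202). Jup differed by -1.30 (SE 0.257, adjusted p = 0.0162), and Dsg2 did not pass (-1.71, SE 0.605, adjusted p = 0.0975). The count rested on few mice. It was 0 without mouse 1383, 1508, 1984 or 2022, where the 9 members had limma adjusted p from 0.051 to 0.131. The share of all genes called in those fits is not given here, so the 0 cannot be set against it. The count was 10 without mouse 1949 (21.6% of all genes called). Among the 5 mice with both carcinomas and the mouse as a fixed block it was 0, and no gene at all was called. Without the arrays closest to another class all 10 members were lower, from -1.58 for Jup to -5.89 for Dsg3, and 19.6% of all genes were called.

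One spindle carcinoma did not share the low levels. The single spindle carcinoma array of mouse 1949, titled RegCA, had all 10 members at or above the lowest SCC carcinoma mouse mean, with Dsg3 at 11.79, Dsp at 12.27 and Dsc2 at 11.11. Of the other 11 spindle carcinoma arrays, 8 had none of the 10 in that range and 3 had only Dsg2. In papillomas 22 of 27 arrays had all 10 members in the range, in SCC metastases 2 of 24 (both of mouse 2104) and in spindle metastases 0 of 20. The SCC carcinomas set the range themselves, so their 8 of 10 arrays are no result. Dsg1b was in the range in 2 of the 24 SCC metastasis arrays, and each other member in 8 (Dsc3, Dsp) to 23 (Dsg2) of them.

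**Figure D3:**
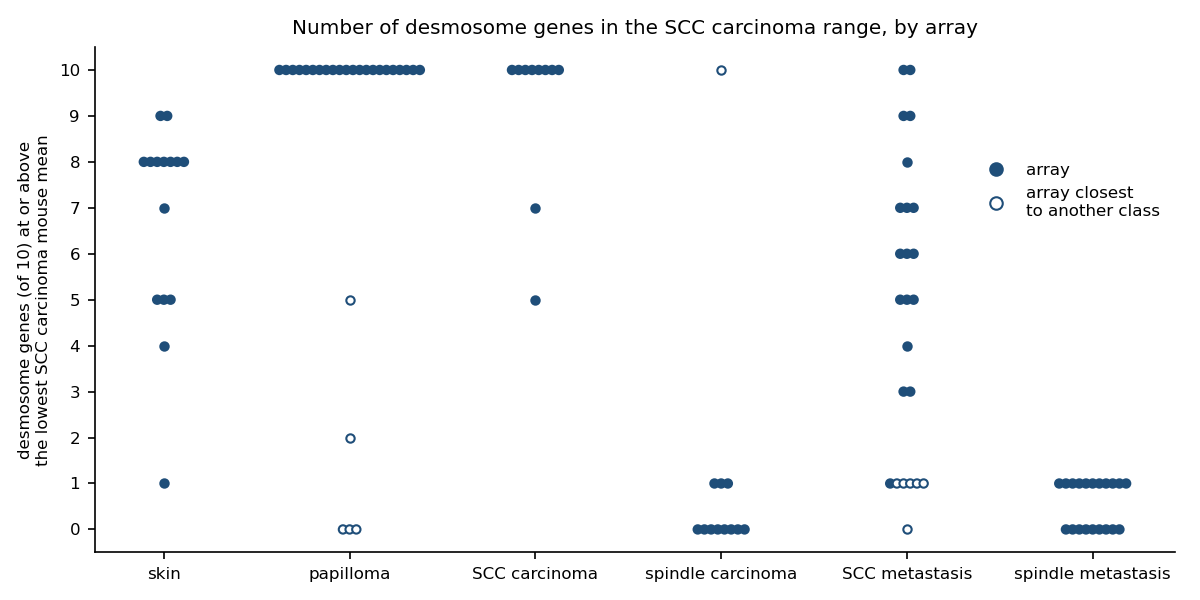
Number of the 10 desmosome genes (vertical axis) at or above the lowest SCC carcinoma mouse mean, with 1 point per array in each of the 6 classes and open points for arrays closest to another class. Papilloma arrays sit at 10 apart from 5 open points, 11 of 12 spindle carcinoma arrays sit at 0 or 1, and SCC metastasis arrays spread from 0 to 10.

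Between SCC metastases and SCC carcinomas of the same 8 mice 1 member was called. Dsg1b, the desmoglein of differentiating layers, was lower in 8 of 8 mice, and it was the 1 member called lower, where 2.74% of all genes were. It ranged from 7.98 to 10.94 in SCC carcinomas (median 10.24) and from 4.32 to 9.28 in the SCC metastases of all 11 mice (median 5.46). Of the 8 mice, 7 had metastases below every carcinoma mean, and mouse 2104, at 9.28, did not. Dsg1b fell by 3.51 (SE 0.429, adjusted p = 0.00699). It was at -2.84 with lymph node metastases alone (6 mice, adjusted p = 0.0439, 0.32% of all genes called) and at -3.34 without the arrays closest to another class (7 mice, adjusted p = 0.0191, 2.45% of all genes called), and it passed with each mouse left out in turn (adjusted p 0.00643 to 0.0305).

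The other members were not called in SCC metastases. Dsc2 was at -1.52 (SE 0.511, adjusted p = 0.118), Dsp at -0.77, Pkp3 at -0.84, Perp at -0.63 and Jup at -0.33. Dsg2 had the opposite sign, at 0.92 (SE 0.466, adjusted p = 0.292), and was higher in 7 of 8 mice. Its metastasis values ran from 5.06 to 9.77 (median 8.69), against 5.08 to 8.71 (median 7.38) in SCC carcinomas. The metastases of mouse 1949, whose Dsg3 was 4.01 and Dsp 9.33, lay apart from the other 7 mice, whose Dsg3 was between 10.44 and 11.61 and Dsp between 11.50 and 12.12. The single metastasis array of that mouse, from lung, was closest to spindle tumours. Without it (7 mice) Dsc2 was at -0.96 (SE 0.216, adjusted p = 0.0566), Dsg3 at -0.55, Dsp at -0.50, Perp at -0.41 and Jup at -0.21, and Dsg2 at 1.36 (SE 0.317, adjusted p = 0.0628).

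**Figure D4:**
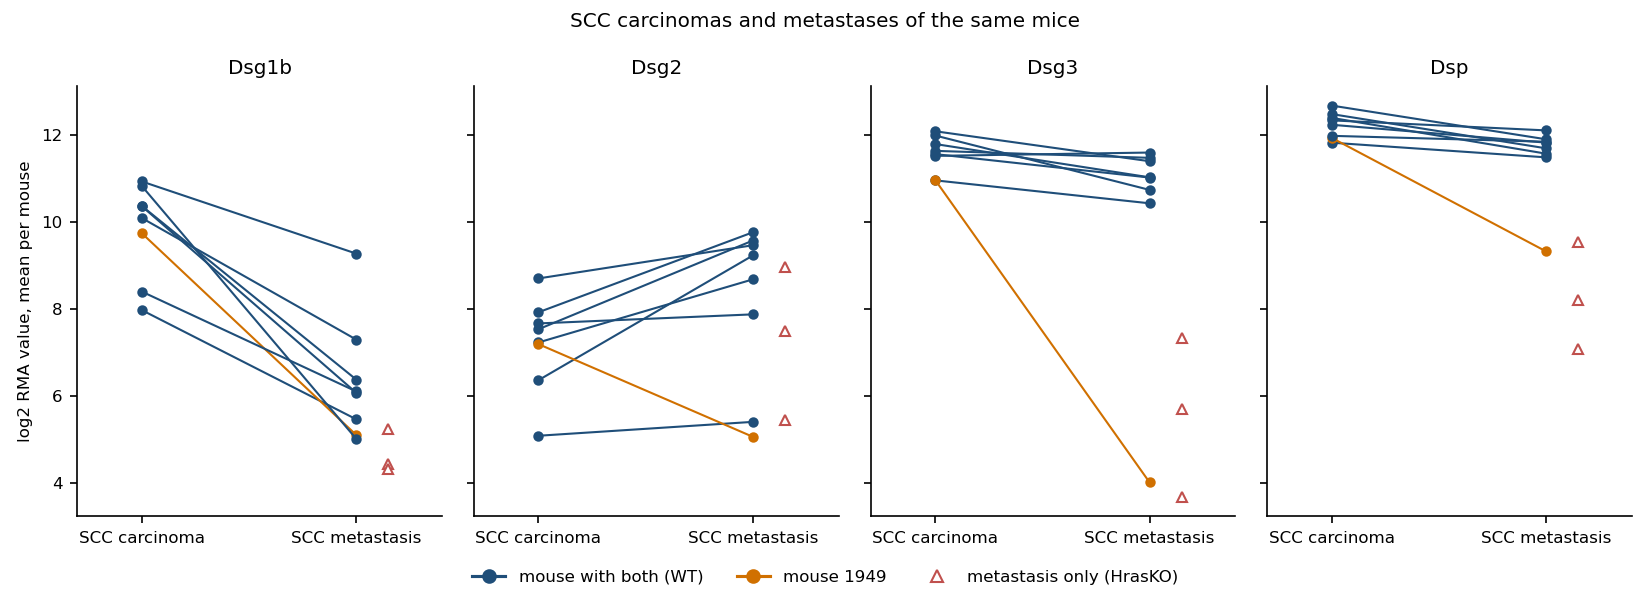
Levels of Dsg1b, Dsg2, Dsg3 and Dsp (log2 RMA value, vertical axis) in SCC carcinomas and SCC metastases, with lines joining the means of 1 mouse, mouse 1949 in orange, and triangles for the 3 HrasKO mice that had no SCC carcinoma. Dsg1b goes down in all 8 mice, and Dsg2 goes up in 7 of 8.

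Markers of the host tissues moved with this comparison. All 3 B cell markers measured, 2 of 6 macrophage markers and 1 of 5 T cell markers were higher in SCC metastases. The mean level of the B cell markers ran from 6.88 to 10.47 over mice in SCC metastases and from 4.67 to 5.47 in SCC carcinomas, and that of 6 lung epithelial markers from 4.33 to 10.33 and from 4.18 to 4.78. Their part in the fall of Dsg1b was not tested. Over 6 epithelial markers (Krt5, Krt14, Krt8, Krt18, Epcam and Cdh1) the mean level ran from 7.67 to 11.67 in SCC metastases (median 11.19) and from 10.40 to 11.54 in SCC carcinomas (median 10.81). The 6 did not move together. Medians were higher in SCC metastases than in SCC carcinomas for Krt8 (11.652 against 10.627), Krt18 (10.854 against 9.928) and Epcam (9.787 against 9.489). They were lower for Krt5 (12.225 against 12.540), Krt14 (12.174 against 12.610) and Cdh1 (10.845 against 11.009).

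No difference was called between spindle metastases and spindle carcinomas of the same 7 mice for any member by limma (0% of all genes, 2495 of which had an unadjusted p under 0.05). The member differences ran from -1.97 for Perp (SE 0.661, adjusted p = 0.323, unadjusted p = 0.0184) to 0.53 for Dsg2, and 1 member, Perp, had an unadjusted p under 0.05. The sign of Dsc2 rested on the spindle carcinoma of mouse 1949. Without it (6 mice) Dsc2 went from -0.61 to 0.35, Dsg2 was at 1.08, Dsg1b at -0.33 and Dsg3 at -0.86, none of them called. With the RegCA carcinomas left out, Dsg1b was at 0.39, Dsc2 at 0.52 and Dsg2 at 1.44. Dsg1b ranged from 3.24 to 4.51 in spindle metastases, Dsg3 from 3.70 to 4.80 and Dsp from 4.93 to 7.63. Perp had a wide range, from 5.15 in mouse 1984 and 6.25 in mouse 1509 to 10.37 in mouse 1537.

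Spindle and SCC metastases were compared over 7 and 11 mice with genotype as a covariate and the mouse as a random block. No member passed, and 0.0266% of all genes were called lower. An unadjusted p under 0.05 was found for 10 of 10 members, all with a negative difference, and for 3378 of the 18772 genes in either direction. Dsp came closest, at -3.60 (SE 0.685, adjusted p = 0.0514), with 4.93 to 7.63 in spindle and 7.08 to 12.12 in SCC metastases. Dsg3 followed, at -3.92 (SE 1.03, adjusted p = 0.0771), with SCC metastases from 3.68 to 11.61. By mouse mean, Dsg3 in SCC metastases was between 10.44 and 11.61 in 7 mice. It was between 3.68 and 7.34 in mice 1616, 1706, 1949 and 1664. The 7.34, of mouse 1616, joined 11.035 in lymph node, in an array closest to SCC tumours, and 3.635 in lung. Mice 1616, 1706, 1949 and 1664 held the 6 SCC metastasis arrays closest to spindle tumours. Without these arrays all 10 members were lower in spindle metastases, from -1.56 for Jup to -7.22 for Dsg3 (SE 0.217), and 7.91% of all genes were called. With lymph node metastases alone 8 members were called, and 11.8% of all genes were. For the change from carcinoma to metastasis, no difference between spindle and SCC tumours was called for any member (0% of all genes by limma, 1806 at an unadjusted p under 0.05), Dsg1b being nearest with a difference of 2.66 (SE 0.899, unadjusted p = 0.00557, adjusted p = 0.281). Dsg1b was already low in spindle carcinomas (median 4.91, against 10.24 in SCC carcinomas), with less room to fall there. The part of this in the difference was not tested.

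By site, no member was called between lung and lymph node metastases of the same 8 mice (0% of all genes by limma, 1155 genes and 0 members at an unadjusted p under 0.05), with differences from -1.31 for Pkp1 to 0.53 for Dsg2. In 3 of these mice the lung metastases were SCC and the lymph node metastases spindle, and the fit holds histology as a term, so its differences are not those of the plain means. For 6 members the plain means had the other sign: Perp had means of 10.47 in lung and 10.17 in lymph nodes and a fitted difference of -0.57. Among SCC metastases the single liver array had Dsg1b at 3.22 and Dsg2 at 9.88. A metastasis labelled dorsal had Dsg1b at 9.36 and Dsp at 12.23, and came from mouse 2104, whose SCC metastases were the highest of the 11 mice for 8 of 10 members. In spindle metastases the 3 spleen arrays had Dsp between 5.69 and 6.33 and Dsg2 between 4.27 and 5.30, the 2 lung arrays had Dsg2 at 7.63 and 8.66, and the 2 liver arrays had it at 7.38 and 8.56.

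No member was called between HrasKO and WT mice in skin, papilloma, spindle carcinoma, SCC metastasis or spindle metastasis with batch as a covariate. The share of genes called in either direction was 0.00533%, 0.00533%, 0%, 0.154% and 0%. In spindle carcinomas and spindle metastases the only mouse of batch 2 was HrasKO mouse 1664, so the batch term took up that mouse. The differences in these classes therefore rest on the other 3 HrasKO mice, and are the same as with batch 1 alone. In SCC metastases (3 HrasKO and 8 WT mice) all 10 members were lower in HrasKO mice, with a median of -2.30. An unadjusted p under 0.05 was found for 6 of them and for 2369 of the 18772 genes in either direction. Perp was at -2.62 (SE 0.510, adjusted p = 0.0979) and Dsp at -3.25 (SE 0.648, adjusted p = 0.104). The Dsp means were between 9.33 and 12.12 in WT mice and 7.08, 8.20 and 9.56 in the HrasKO mice, so the means overlapped only through mouse 1949. The 9.56, of HrasKO mouse 1616, joined 11.51 in lymph node and 7.60 in lung. Of the 6 SCC metastasis arrays closest to spindle tumours, 5 came from these 3 HrasKO mice. Without those arrays 1 HrasKO mouse was left, Dsp was at -0.26 and Perp at -0.25, and no member was called. Without mouse 1949, 6 members were called lower, with 1.63% of all genes called. In skin the differences of the 10 members ran from -0.52 (Dsc2) to -0.02 (Dsg1b), with adjusted p from 0.531 to 0.989. Hras was not analysed here, so these genotype labels were not checked against it.

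Skin varied among mice in a shared way. The skin of mouse 1706 was the lowest of 15 for 9 of the 10 members, for example 6.44 for Dsg2 against a median of 8.53, and for Dsp 11.41 against 12.46. It also had the lowest mean of the 6 epithelial markers (8.62) and the highest mean of 5 skeletal muscle markers (12.25). Their part in its low desmosome levels was not tested. Skin of mouse 2022 was lowest for Dsc2 (5.14), the member with the widest range in skin.

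Across the 64 means of a mouse and class, the 45 pairs of members had Pearson correlations from 0.522 to 0.949, with a median of 0.856. These points share mice and classes, so the values are descriptions and carry no p. Dsg1b was closest to Nipal4 (r = 0.981), Sdr9c7 (0.979) and Pnpla1 (0.977), which act in the lipid barrier of the outer epidermis. Dsg3 was closest to Lypd3 (0.993), Krt6a (0.990) and S100a14 (0.980). Dsc3 was closest to Serpinb5 (0.973), Trp63 (0.973), the p63 transcription factor, and Zfp750 (0.968). Dsp was closest to Dmkn (0.967), Zfp750 (0.967) and Rab25 (0.964), and Pkp1 to S100a14 (0.959), Fam83h (0.957) and the hemidesmosome collagen Col17a1 (0.957).

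The remaining members followed other genes. Pkp3 was closest to envoplakin, Evpl (0.968), Sult2b1 (0.964) and Arhgef4 (0.963), Dsc2 to Sult2b1 (0.933), Serpinb11 (0.928) and Mdfi (0.923), and Jup to Fam83h (0.945), Ppp1r13l (0.941) and Lad1 (0.941). Perp was closest to Anxa8 (0.927), Klf5 (0.899) and Krt14 (0.899). Dsg2 had the lowest values of the 10 for its 3 closest genes, which were Hook1 (0.874), Marveld2 (0.867), a protein of the junctions where 3 cells meet, and Celsr1 (0.848).

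Of 7 other genes of desmosomes and the cornified envelope plaque, Pkp2 behaved unlike the members. Pkp2, the plakophilin of simple epithelia and heart, ranged from 4.99 to 7.91 in papillomas (median 5.69), from 5.63 to 6.90 in SCC carcinomas (median 6.52) and from 6.61 to 8.34 in spindle carcinomas (median 7.55). It fell by 1.05 from skin to papilloma (SE 0.222, adjusted p = 0.00164) and rose by 1.61 from papilloma to spindle carcinoma (SE 0.232, adjusted p = 0.00643), so that 1 of the 7 rose and 3 fell there. It was also higher in spindle than in SCC carcinomas, by 1.34 (SE 0.248, adjusted p = 0.0156), and higher than in skin, by 0.65 (SE 0.163). Those that fell from papilloma to spindle carcinoma were corneodesmosin, Cdsn (-3.80, SE 0.703), periplakin, Ppl (-2.83, SE 0.497), and Evpl (-2.69, SE 0.554), while Pkp4, Dsg4 and Dsg1c did not pass. The median of the 7 was -0.32, against 0.03 over all genes. From SCC carcinoma to metastasis 2 of the 7 fell, Cdsn (-4.20, SE 0.583, adjusted p = 0.00989) and Evpl (-1.22, SE 0.289, adjusted p = 0.0472). From skin to papilloma 3 fell, Pkp2, Dsg1c (-0.69, SE 0.211) and Dsg4, a desmoglein of the hair follicle (-2.64, SE 0.815). In that comparison 5 of 6 hair follicle markers were lower too, their mean running from 4.45 to 12.22 in skin and from 4.74 to 7.53 in papillomas, and their part in the fall of Dsg4 was not tested.

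The keratins, to which desmosomes attach, split in spindle carcinomas. Of 12, 8 fell against papillomas and 2 rose (median -3.01). Krt1, of the spinous layer, fell by 4.51 (SE 0.924) and Krt16, of hyperproliferating epidermis, by 4.36 (SE 0.899). The simple epithelial pair Krt8 and Krt18 rose by 2.50 (SE 0.671) and 1.81 (SE 0.468). From SCC carcinoma to metastasis 3 of the 12 fell: Krt1 by 4.36 (SE 0.606), Krt10 by 3.89 (SE 0.465) and Krt16 by 3.35 (SE 0.684). Krt5 (-1.05, adjusted p = 0.494) and Krt14 (-1.13, adjusted p = 0.439) did not pass.

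Of 8 adherens junction genes, 6 fell from papilloma to spindle carcinoma and 1 rose (median -1.05), with Nectin4 at -2.65, P-cadherin, Cdh3, at -2.55 and E-cadherin, Cdh1, at -2.21. Alpha-catenin, Ctnna1, rose by 0.19 (SE 0.0617, adjusted p = 0.0458), and beta-catenin, Ctnnb1, a close relative of Jup, did not pass (0.09, adjusted p = 0.258). Of 12 epithelial regulators, 11 fell (median -2.85), among them the splicing factor Esrp1 by 3.93 (SE 0.756) and the transcription factor Ovol1 by 3.91 (SE 0.666). Of 7 transcription factors of epithelial-mesenchymal transition, 3 rose and 1 fell: Snai1 was at 1.75 (SE 0.349), Zeb1 at 1.38 (SE 0.344) and Prrx1 at 1.35 (SE 0.349), while Snai2 was the one that fell, at -0.73 (SE 0.148). From SCC carcinoma to metastasis none of the 8 adherens junction genes was called and 3 of 12 regulators fell, among them Ovol1 by 2.35 (SE 0.450) and Grhl3 by 1.62 (SE 0.385).

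Among markers of other cell types, 4 of 6 macrophage markers were higher in spindle carcinomas than in papillomas, their mean running from 9.01 to 11.24 in spindle carcinomas and from 8.11 to 10.63 in papillomas. All 5 melanocyte markers were lower, their mean running from 4.03 to 5.35 and from 4.03 to 7.59. Of 7 fibroblast markers 1 was higher, their mean running from 9.51 to 11.64 and from 9.00 to 11.31. The part of these cells in the falls of the desmosome genes was not tested.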

How the data were processed

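The deposited values are log2 expression values, 1 per probe set and array, made by the authors with RMA, per the submitters' processing notes; its version was not given in the sources used here. Of 28204 probe sets, 21141 had 1 gene symbol in the platform annotation, 1881 had several and 5182 had none. Each of the 18772 genes was represented by its single-symbol set with the highest mean. Array medians ran from 5.89 to 6.36.

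Arrays of a mouse and class were averaged. Classes were compared with limma 3.58.1 (R 4.3.3), with the mouse as a fixed block where each mouse had both classes and otherwise as a random block, and p-values were adjusted by Benjamini-Hochberg over all genes (threshold 0.05). Mice with the same number in 2 classes are the same animal, as the labels state. HrasKO and WT mice were compared with batch (95 and 17 arrays) as a covariate. The fitting step was tested on simulated data with independent noise. That test held no random block, so the fits with the mouse as a random block were not tested as they were run. The 4 arrays of mixed histology entered no comparison.

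The text names all 10 members, up to 2 rises and 2 falls per gene list and the 3 closest genes of each member; Krt5, Krt14, Ctnnb1, Cdh1 and Evpl were added beside them. Members and lists were chosen with earlier results of these data known. Alternatives were individual arrays, other probe set, filter, variance, normalisation, batch, block and covariate choices, subsets of sites and carcinomas, leaving out arrays closest to another class, and leaving out each mouse.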

Additional observations from a re-analysis of the deposited data

Results flagged for a closer look

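Of 30 groups of 4 to 10 mice that were screened, 6 had a highest mouse far from the rest, where chance alone flags about 1 in 20 separate groups. The groups here are not separate, because the 10 members vary together in the same mice, so the 6 cannot be read as an excess. In spindle carcinomas mouse 1949 stood apart for Dsg2 (8.07, next highest mouse 5.19), Dsc2 (11.11, next 6.95) and Pkp3 (9.89, next 6.99), all from its 1 array, which was closest to papillomas. In spindle metastases mouse 1509 stood apart for Dsg2 (8.66, next 6.25), a value from 1 lung array. Mouse 1537 stood apart in spindle metastases for Dsg3 (4.80, next 4.08) and for Pkp1 (9.91, next 6.83).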

How the results depend on the processing

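Among 617 alternative values of members called in the comparisons, 0 changed sign and 69 lost the call; among 2443 of members not called, 140 changed sign and 71 became called. Without the arrays closest to another class, members higher in papillomas than in skin numbered 6, members lower in SCC carcinomas than in papillomas 2, and members lower in spindle than in SCC metastases 10. There 36 of 160 member differences changed sign, 0 of them called with or without the arrays, for example Dsc3 (0.13), Dsp (0.22) and Perp (0.04) in papilloma against skin; Tfap2a in HrasKO against WT SCC metastases (0.087, adjusted p = 0.972) and Perp against Dsp from skin to papilloma (-0.18) changed sign too. With individual arrays and the mouse as a random block, members called lower numbered 2 for SCC carcinoma against skin (34.3% of all genes called in either direction), 4 for SCC metastasis against carcinoma (11.8%), 8 for spindle against SCC metastasis (10.4%) and 3 for HrasKO against WT SCC metastasis (1.03%), and 1 was higher in the difference of changes (1.17%). For spindle against SCC metastases the count was 2 with the filter on low values (2.19% of all genes), 1 with quantile normalisation (0.549%), 3 with no genotype covariate (3.25%) and 8 with lymph nodes alone. With the RegCA carcinomas left out, 0 members were lower in spindle carcinomas than in papillomas. With no replicate block, 0 were lower in SCC carcinomas than in skin; with the mouse as a fixed block among mice with both carcinomas, 0 were lower in spindle than in SCC carcinomas. Leaving out each mouse in turn, counts ran from 1 to 5 (papilloma against skin, higher), 1 to 2 (SCC carcinoma against skin, lower), 8 to 10 (spindle carcinoma against papilloma), 0 to 10 (spindle against SCC carcinoma), 0 to 2 (spindle against SCC metastasis), 0 to 1 (difference of changes) and 0 to 6 (HrasKO against WT SCC metastasis). The fits with the 5 members in papillomas, the 10 in spindle against SCC carcinoma and the 6 in HrasKO mice called 45.8%, 21.6% and 1.63% of all genes. The shares of the other fits with 1 mouse left out are not given here, so those counts cannot be set against all genes. The causes were not tested. Low signals near the bottom of each probe set's range limit how far a fall can be measured.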

Other observations

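The 4 arrays of mixed histology were in no comparison. The mixed carcinoma of mouse 1706 was closest to SCC tumours, with Dsg3 at 11.33 and Dsp at 11.76. The mixed carcinomas of mice 1949 and 1616 were closest to spindle tumours, with Dsp at 10.23 and 4.65 and Dsg3 at 8.81 and 3.91. The mixed lung metastasis of mouse 1508 was also closest to spindle tumours, with Dsp at 5.53, Dsg3 at 3.70 and Perp at 5.47.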
